A study of Mus musculus with 18 samples.

Results

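The CC chemokines and their receptors described here are 9 genes: the ligands Ccl2, Ccl7, Ccl8, Ccl3, Ccl4, Ccl6 and Ccl9 and the receptors Ccr1 and Ccr2. They were taken by symbol from a table of 23474 genes, and all 9 were found; the rule holds no measured value, but the genes were picked with earlier results of these data known. Messenger RNA had been sequenced in 18 libraries, 3 from each of 6 groups: epididymal white adipose tissue (eWAT, the fat pad beside the epididymis) and liver, each from mice fed a normal diet (ND), from mice called high-fat diet-prone (HP) and from mice called HFD-resistant (HR). All were male C57BL/6J mice (spelt C56BL/6J in the strain label) aged 17 weeks, with no engineered allele named. Each diet group had 10 mice, which began the diets at 5 weeks of age and kept them for 12 weeks. The labels name no fat content, do not say how prone and resistant mice were told apart, and do not say that each library is a separate mouse. The p-values below therefore measure the spread among libraries, which may be technical. The comparison asks how expression in the 2 tissues differs between prone, resistant and normally fed mice.

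Chemokines are small secreted proteins that direct the movement of leukocytes. CC chemokines carry a pair of adjacent cysteines near their amino end and act through receptors with 7 membrane spans that couple to inhibitory G proteins. In fat tissue, Ccl2 and its receptor Ccr2 are best known for drawing blood monocytes into the tissue, where they become macrophages, and macrophages themselves produce many of these ligands. Ccl2, Ccl7 and Ccl8 belong to the monocyte chemoattractant proteins, Ccl3 and Ccl4 to the macrophage inflammatory protein 1 pair, and Ccl6 and Ccl9 to a rodent pair of ligands of Ccr1. Ccr1 binds Ccl3, Ccl6, Ccl7 and Ccl9, among others.

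The coding stretches below show the feature that names the family and how far the members differ around it. They come from the GENCODE M21 transcripts, 5′ to 3′, and capitals mark the codons of the adjacent cysteines.
Ccl2: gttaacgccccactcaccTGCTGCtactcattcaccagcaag
Ccl7: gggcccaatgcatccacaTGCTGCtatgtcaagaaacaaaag
Ccl8: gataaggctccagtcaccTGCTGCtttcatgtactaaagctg
Ccl3: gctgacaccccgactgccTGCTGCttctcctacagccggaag
Ccl4: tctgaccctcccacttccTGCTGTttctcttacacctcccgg
Ccl6: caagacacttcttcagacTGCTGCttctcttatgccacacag
Ccl9: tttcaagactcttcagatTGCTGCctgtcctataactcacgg
For the receptors, capitals mark the codons of the aspartate-arginine-tyrosine motif at which G proteins are engaged.
Ccr1: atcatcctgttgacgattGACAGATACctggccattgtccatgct
Ccr2: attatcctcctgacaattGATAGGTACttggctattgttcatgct

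Ccl6 and Ccl9 were the most alike of the 7 ligands, with 70.7% identical coding bases and a longest shared run of 25 transcript bases. Ccl2 and Ccl7 shared 68.0% and a run of 23 bases. Reads could be split between Ccr2 and related receptor genes, so its value is uncertain to that degree. Ccr1 and Ccr2 shared 65.0% and a run of 16 bases. No member shared exon bases with another gene in the annotation. In RefSeq (GRCm38.p6) the 7 ligand genes lie on chromosome 11, where Ccl9 and Ccl6 are neighbours among the chemokine genes. Ccr1 and Ccr2 lie near each other on chromosome 9, with Ccr3 between them.

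Promoter sequences from RefSeq (GRCm38.p6; 250 bases before to 50 after the gene start) were matched for 6 members: Ccr1, Ccr2, Ccl8, Ccl9, Ccl6 and Ccl3. The neighbours Ccl9 and Ccl6 are shown because they had the highest levels of all members in eWAT. Each line holds the 120 bases before the start, on the minus strand, at chr11:83578637-83578756 for Ccl9 and chr11:83593088-83593207 for Ccl6, and capitals mark a match to the NF-kB motif.
Ccl9: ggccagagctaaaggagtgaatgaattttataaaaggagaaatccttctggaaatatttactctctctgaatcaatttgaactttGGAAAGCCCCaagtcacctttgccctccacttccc
Ccl6: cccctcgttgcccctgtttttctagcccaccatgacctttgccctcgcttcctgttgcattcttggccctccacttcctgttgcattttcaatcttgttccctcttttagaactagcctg
Both strands were searched for the NF-kB motif, AP-1 (TGANTCA), PU.1 (GAGGAAG) and C/EBP (TTNCNNAA). The NF-kB motif was found in Ccl9 alone of the 6, at positions -35 to -26, and in 4.51% of all 32851 promoters. AP-1 was likewise found in Ccl9, at -53 to -47, and in 7.81% of all promoters. PU.1 was found in Ccl8, at -241 to -235, and in 13.6%. C/EBP was found in Ccr1, Ccr2, Ccl9 and Ccl3, and in 40.7%, and one of its matches in Ccl9 (-38 to -31) overlapped the NF-kB match. These are matches of letters in a window, and no binding was measured.

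Values are FPKM, fragments per kilobase of transcript scaled to the mapped fragments of the library, so they can be compared between genes per length, and the absolute depth is unknown. Steps in low values gave relative depths of 0.882 to 1.10 in liver, against liver ND 2, and, less clearly, 0.859 (ND 1) to 1.22 (HP 2) in eWAT, against HR 3. The eWAT libraries labelled ND 1 and HR 2 were unlike the rest: their median correlation across genes with other eWAT libraries was 0.328 and 0.425, against 0.810 to 0.935 for the remaining 7. Their summed FPKM of the 4 spermatid genes was 92413 and 11231, against 7.47 to 2282 elsewhere in eWAT. Adipocyte markers summed to 3544 and 4914 in those libraries and to 16190 to 29959 in the others. Epididymis markers summed to 19165 FPKM in ND 1, and to 1662 in HP 2 against at most 13.8 in the other eWAT libraries. Results in eWAT are therefore given over all 9 libraries and over the 7 without ND 1 and HR 2, and the counts of members also without HP 2. In liver HP 3 the hepatocyte gene Alb and mt-Co1 are listed at 0, although every other liver library held at least 21466 and 29610 FPKM of them, so an exact 0 in this table can be a failed estimate.

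In eWAT all 9 genes were higher in every HP library than in any ND library. With limma on log2(FPKM + 1) over the 9 libraries, Ccl2 and Ccl3 passed an adjusted p of 0.05. Over the 7 libraries all 9 genes passed. HR 1 and HR 3 lay between the ND and HP values for 7 members, and for Ccl8 and Ccr2 HR overlapped HP. In liver, Ccl2 rose in HP, Ccl9 had the highest level, and Ccl6 was at 1.57 to 3.87 FPKM with overlap of all groups. The rest were below 1 FPKM in every liver library, apart from Ccr2 in HP 2 and HP 3. For Ccl9 HP overlapped ND, and HR lay above both, though neither difference of HR passed.

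**Figure D1:**
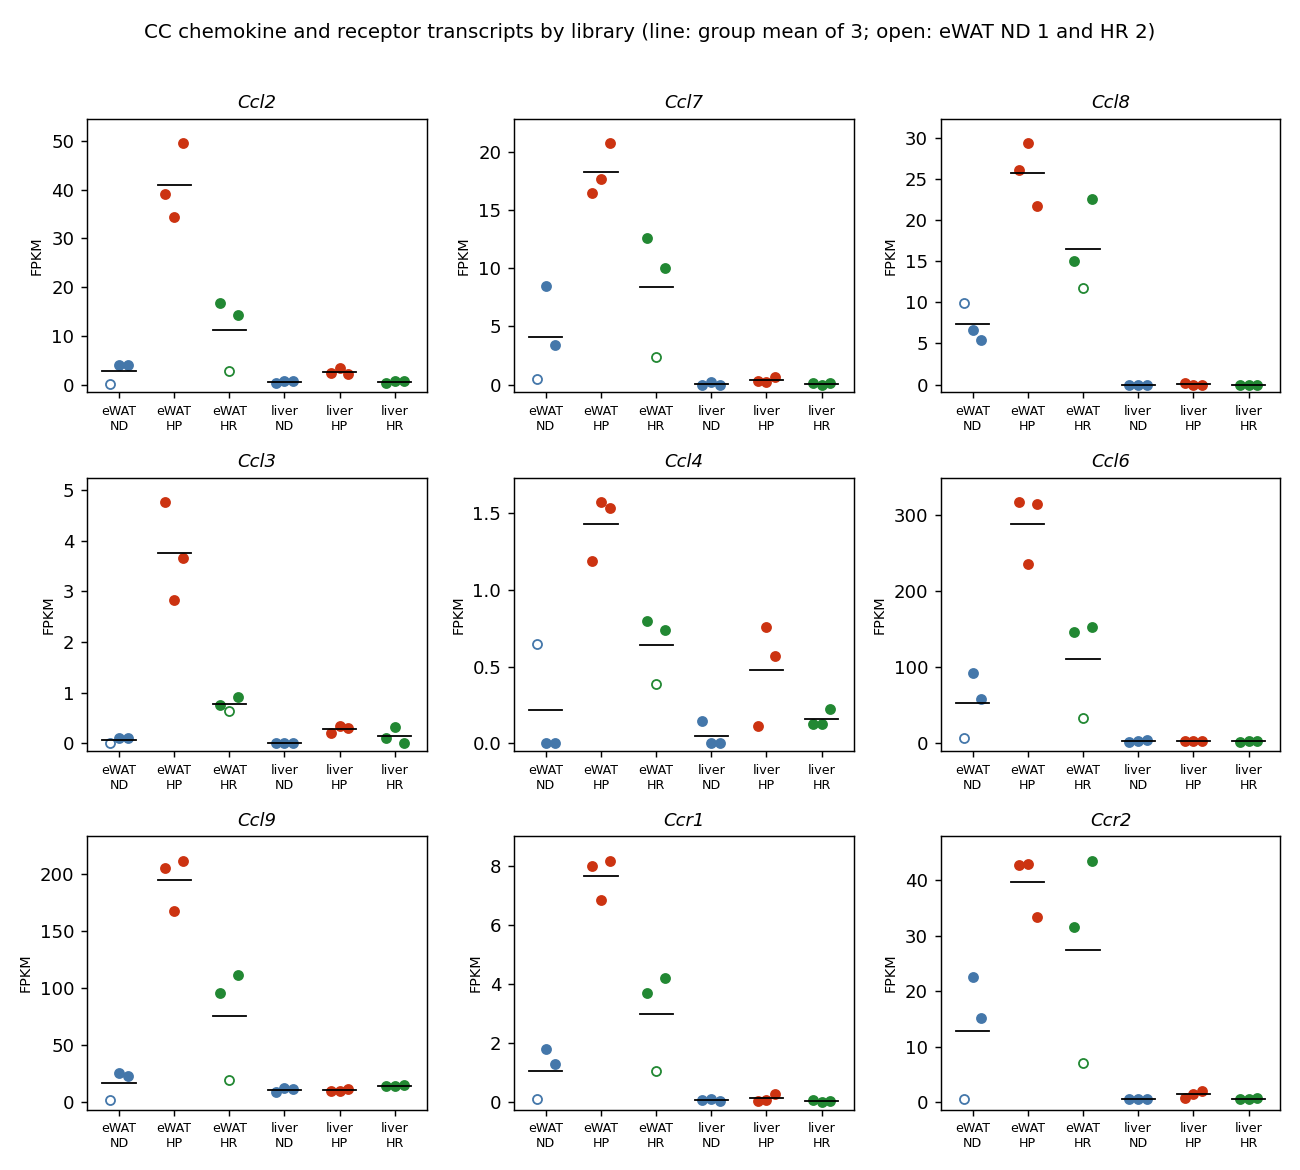
FPKM of the 9 members in each library (y axis, linear) by tissue and diet group (x axis); points are libraries, lines are means of 3, and open points are eWAT ND 1 and HR 2. HP libraries of eWAT are the highest group for Ccl2, with 34.3 to 49.5 FPKM, and Ccl8 and Ccl4 are the members with ND 1 as the highest of its group.

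Among the monocyte chemoattractant ligands, Ccl2 was listed at 0.156, 4.04 and 4.08 FPKM in eWAT of ND 1 to 3. In HP 1 to 3 it was at 39.0, 34.3 and 49.5, and in HR 1 to 3 at 16.7, 2.72 and 14.3. HP lay clear above both other groups, and HR 2 fell among the ND values while HR 1 and HR 3 were above them. The HP mean was 40.9 ± 7.76 FPKM (SD, n = 3), 14.8 times that of ND. The log2 difference from ND was 3.74 (SE 0.76, limma adjusted p = 0.0497) over 9 libraries and 3.03 (SE 0.18, adjusted p = 0.000136) over 7. The first is close to the threshold: with 1 library left out it was kept without HR 2 (adjusted p = 0.0158) and lost without any of the other 8 (adjusted p = 0.0753 to 0.256).

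Ccl7, a ligand of Ccr2 and Ccr1 encoded next to Ccl2, was at 0.443, 8.50 and 3.41 FPKM in ND. It was at 16.4, 17.7 and 20.7 in HP and at 12.6, 2.41 and 10.1 in HR. HP lay above both groups, and HR 2 fell among the ND values. The log2 difference of HP from ND was 2.29 (SE 0.75, adjusted p = 0.246) over 9 libraries and 1.57 (SE 0.32, adjusted p = 0.0148) over 7.

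Ccl8, a ligand made by tissue macrophages, was at 9.87, 6.63 and 5.44 FPKM in ND, 26.1, 29.3 and 21.7 in HP, and 15.0, 11.7 and 22.6 in HR. Here ND 1 was the highest of its group, not the lowest, and all HR libraries exceeded all ND libraries. HR 3 was above HP 3, so HP and HR overlapped. The HP difference from ND was 1.71 (SE 0.35, adjusted p = 0.0519) over 9 libraries and 1.92 (SE 0.22, adjusted p = 0.00146) over 7.

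Of the macrophage inflammatory protein 1 pair, Ccl3 was listed at 0, 0.106 and 0.0975 FPKM in ND. It was at 4.76, 2.82 and 3.66 in HP and at 0.749, 0.640 and 0.921 in HR. The 3 groups did not overlap at all. The HP difference was 2.13 (SE 0.28, adjusted p = 0.0214) over 9 libraries and 2.09 (SE 0.24, adjusted p = 0.00170) over 7, on a scale that understates changes at such low levels. Over 9 libraries the call was lost without ND 2, ND 3 or HR 1 (adjusted p = 0.0529 to 0.0820).

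Ccl4, an attractant of leukocytes, was listed at 0.646, 0 and 0 FPKM in ND, and was at 1.19, 1.57 and 1.53 in HP and 0.794, 0.384 and 0.736 in HR. By mean it was the lowest member in HP and HR, while Ccl3 was lower in ND, and ND 1 was above HR 2. The HP difference was 1.04 (SE 0.30, adjusted p = 0.178) over 9 libraries and 1.28 (SE 0.22, adjusted p = 0.00825) over 7. Ccl3 and Ccl4 reached 1 FPKM in the HP libraries only, which is how they passed the filter on low values, so being tested and being higher in HP are not separate facts for them.

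Ccl6 had the highest level of the family in eWAT. It was at 7.07, 92.8 and 57.9 FPKM in ND, 316, 235 and 313 in HP, and 146, 33.3 and 153 in HR. HP lay above both groups, and HR 1 and HR 3 lay above all ND libraries. The HP mean of 288 ± 45.9 FPKM (SD, n = 3) was 5.48 times that of ND, with a log2 difference of 3.01 (SE 0.94, adjusted p = 0.215) over 9 libraries and 1.95 (SE 0.23, adjusted p = 0.00170) over 7.

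Ccl9 followed at 1.50, 25.7 and 22.6 FPKM in ND, 205, 168 and 211 in HP, and 95.1, 19.1 and 111 in HR. Its HP mean of 195 ± 23.6 FPKM (SD, n = 3) was 11.7 times that of ND. The log2 difference was 4.06 (SE 0.98, adjusted p = 0.0951) over 9 libraries and 2.95 (SE 0.15, adjusted p = 9.89e-05) over 7. Of the 9 members this was the largest difference over 9 libraries, and over 7 that of Ccl2 was larger.

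Of the receptors, Ccr1 was below its ligands Ccl6, Ccl7 and Ccl9 in the mean of each eWAT group and above Ccl3, and Ccr2 was above Ccl2 in ND and HR and near it in HP. Ccr1 was at 0.117, 1.80 and 1.30 FPKM in ND, 8.01, 6.87 and 8.18 in HP, and 3.70, 1.06 and 4.22 in HR. HP lay above both groups. The HP difference was 2.17 (SE 0.49, adjusted p = 0.0738) over 9 libraries and 1.77 (SE 0.18, adjusted p = 0.000942) over 7.

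Ccr2, the receptor of Ccl2 on blood monocytes, was at 0.624, 22.5 and 15.1 FPKM in ND, 42.7, 42.8 and 33.4 in HP, and 31.6, 7.06 and 43.4 in HR. The highest library of all was HR 3, and without HR 2 the HP and HR values interleaved. The HP difference from ND was 2.25 (SE 1.02, adjusted p = 0.468) over 9 libraries and 1.05 (SE 0.23, adjusted p = 0.0178) over 7, the smallest of the 9 members there.

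Counted against all genes, 2 of 9 members were called higher in HP than ND over 9 libraries, where 2.07% of the 14430 genes tested were, and 8 of 9 had an unadjusted p under 0.05. All 9 had groups that did not overlap, where 20.8% of genes did in that direction. Over 7 libraries all 9 were called higher, where 15.7% of 13054 genes were. With HP 2 left out as well, 6 were called, Ccr2 was not (0.996, adjusted p = 0.0611), and Ccl3 and Ccl4 were not tested. The median log2 difference of the members was 2.25 over 9 libraries and 1.92 over 7, beside 0.09 and 0.01 for all genes tested. Given how the members were picked, these counts describe the family and test nothing about it.

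HR and ND share the ND libraries with the comparison above, and HP against HR shares HP, so the 3 are given side by side and not set against each other. For HR against ND over 9 libraries, limma called 0 of 9 members (3 had an unadjusted p under 0.05) and 0% of all genes. Ccl3 and Ccl8 alone had groups that did not overlap, where 3.19% of genes did, and the log2 differences ran from 0.46 for Ccl4 to 2.37 for Ccl9. Over 7 libraries 4 members were called higher, where 3.85% of genes were: Ccl9 at 2.05 (SE 0.16, adjusted p = 0.00281), Ccl2 at 1.70 (SE 0.19, adjusted p = 0.00714), Ccl8 at 1.47 (SE 0.24, adjusted p = 0.0220) and Ccr1 at 0.96 (SE 0.20, adjusted p = 0.0479). The other 5 had differences of 0.73 to 1.02 with adjusted p of 0.0818 to 0.234.

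For HP against HR over 9 libraries, limma called 0 of 9 members (3 had an unadjusted p under 0.05) and 0% of all genes, and 7 members had groups that did not overlap, where 16.7% of genes did. Over 7 libraries 4 were called higher in HP, where 4.21% of genes were. These were Ccl3 at 1.35 (SE 0.24, adjusted p = 0.03), Ccl2 at 1.34 (SE 0.18, adjusted p = 0.0182), Ccl9 at 0.90 (SE 0.15, adjusted p = 0.0265) and Ccr1 at 0.81 (SE 0.18, adjusted p = 0.0491). Ccr2 stood at 0.08 (SE 0.23, adjusted p = 0.865), which does not show that the groups were equal, with 2 HR libraries.

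**Figure D2:**
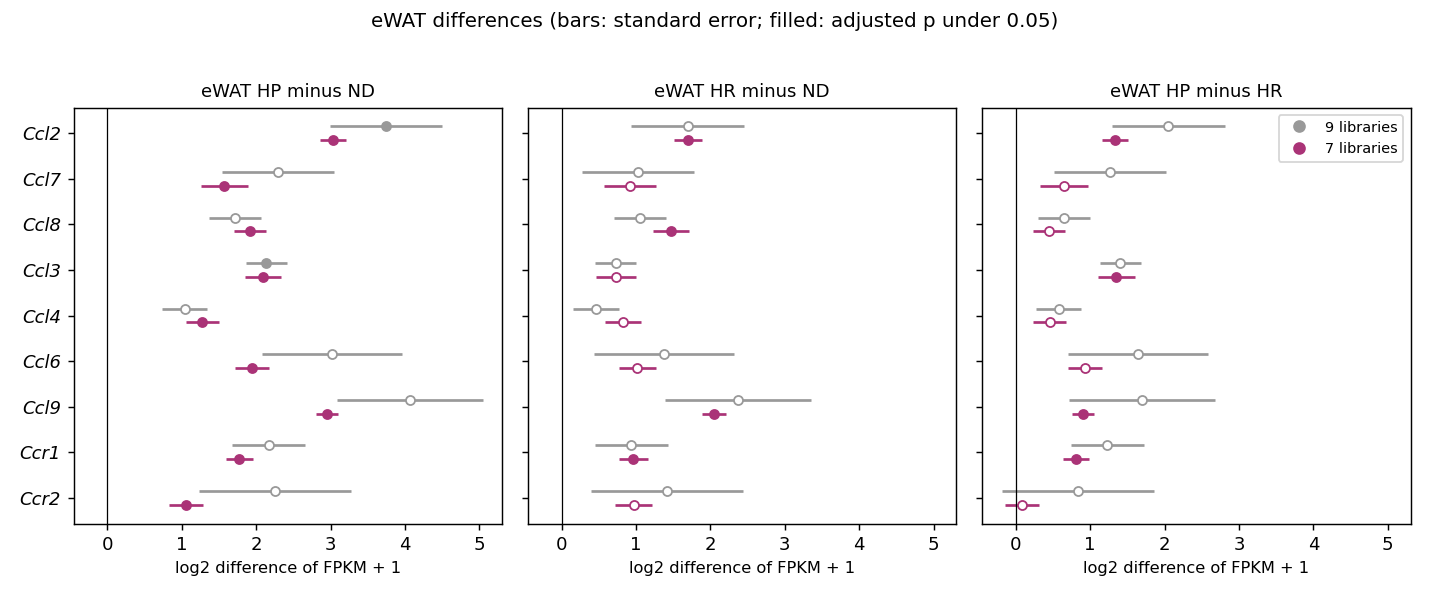
Log2 difference of FPKM + 1 (x axis) for each member (y axis) in the 3 eWAT comparisons; grey points use 9 libraries and purple points 7, bars are standard errors, and filled points passed an adjusted p of 0.05. In HP against ND 2 grey and all 9 purple points are filled, and in HP against HR Ccr2 lies at 0.08 over 7 libraries.

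Transcripts of macrophages moved with the members in eWAT. Over 9 libraries 6 of 13 macrophage markers were called higher in HP than ND, and over 7 libraries 12 of 13. Of all genes tested 2.07% and 15.7% were. Their summed level was 218 to 860 FPKM in ND, 4709 to 6667 in HP, and 661 to 2727 in HR. Of the 8 markers of lipid-associated macrophages, the foamy macrophages of enlarged fat, 6 were called over 9 libraries and 8 over 7, with sums of 30.9 to 99.1 in ND, 2555 to 3743 in HP and 145 to 995 in HR. Monocyte markers summed to 58.6 to 99.0 in ND, 63.2 to 68.3 in HP and 49.7 to 61.3 in HR, and 0 of 6 tested were called over 9 libraries (1 of 6 over 7). The 99.0 was in ND 1, where Plac8 alone was at 77.5. Chil3, Vcan and Treml4 of this list were higher in every HP library than in any ND library, and its other genes overlapped. Markers of other cells moved too. The neutrophil sum was 5.05 to 11.7 in ND, 57.3 to 66.2 in HP and 9.44 to 51.2 in HR, in HP mostly S100a8, while the defining marker Ly6g was listed at 0 in 8 of 9 eWAT libraries, and 0 of 3 tested were called over 9 libraries and 2 over 7. The mast cell sum was 2.44 to 11.2 in ND, 24.9 to 44.1 in HP and 0.940 to 7.76 in HR, with 1 of 4 called over 9 libraries and 4 over 7.

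Dendritic cell markers summed to 82.4 to 208 in ND, 459 to 643 in HP and 128 to 462 in HR, with 0 of 6 called over 9 libraries and 1 of 5 over 7. Most of that sum was H2-Ab1, at 440 to 619 FPKM in HP. Zbtb46 and Siglech of the same list were lower in every HP library than in any ND library, and Clec9a was higher. Markers of fibroblasts and adipocyte progenitors summed to 54.2 to 1019 in ND, 1583 to 1731 in HP and 222 to 1194 in HR, with 0 and 3 of 6 called. The mesothelial sum was lower in HP than ND, at 26.0 to 30.4 in ND, 8.13 to 13.5 in HP and 7.37 to 29.5 in HR, with 0 of 5 called over 9 libraries and 3 called lower over 7. Of the Kupffer cell list 0 of 4 were called over 9 libraries and 2 over 7, its sum was 8.41 to 45.8 in ND and 103 to 149 in HP, mostly Folr2, and its defining marker Clec4f was listed at 0 in 8 of 9 libraries. In bulk tissue more cells of a type and more RNA per cell cannot be told apart, and the part of any of these cells in the results was not tested.

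Set against the 13-gene macrophage sum of the same library, a ratio chosen after the values were seen and given with no test, the members did not run together. Ccl2 stood at 0.613, 0.728 and 0.742 FPKM per 100 FPKM of the sum in HP 1 to 3 and at 0.0718, 0.470 and 0.601 in ND 1 to 3. HP was thus above ND, though HP 1 and ND 3 nearly met. In HR 1 to 3 Ccl2 was at 0.696, 0.411 and 0.523, which overlapped both. Ccl3 was at 0.0549 to 0.0747 in HP and 0.0312 to 0.0969 in HR, both above the 0 to 0.0144 of ND. Relative to macrophage transcripts these 2 ligands were the members that were higher in HP than in every ND library.

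Other members were lower in HP than in another group. Ccl8 per 100 FPKM was at 0.771 to 4.53 in ND, 0.325 to 0.622 in HP and 0.624 to 1.77 in HR, so HP was lowest, though HP 2 and HR 1 nearly met. Ccr2 was at 0.500 to 0.909 in HP and 1.07 to 1.59 in HR, and in ND at 2.62 and 2.22 in ND 2 and ND 3 but 0.287 in ND 1. Ccr1 was at 0.123 to 0.146 in HP and 0.154 to 0.161 in HR, and its ND range of 0.0538 to 0.210 overlapped both. Thus both receptors had a smaller ratio in HP than in HR, and neither was apart from ND.

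Ccl6 was at 3.25 to 10.8 in ND, 4.70 to 5.00 in HP and 5.03 to 6.09 in HR, so ND spanned both other groups. Ccl9 was at 0.690 to 3.33 in ND, 3.17 to 3.56 in HP and 2.88 to 4.09 in HR, with overlap of all groups. Ccl7 and Ccl4 overlapped between all groups. Lyz2 and Lgals3 made up 30.9% to 69.0% of the sum in eWAT. With these 2 genes left out of the sum, the orders given for Ccl2, Ccl3, Ccl8, Ccr1 and Ccr2 were the same, HP and HR overlapped for Ccl6, and Ccl9 came to lie above ND in HP and HR.

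**Figure D3:**
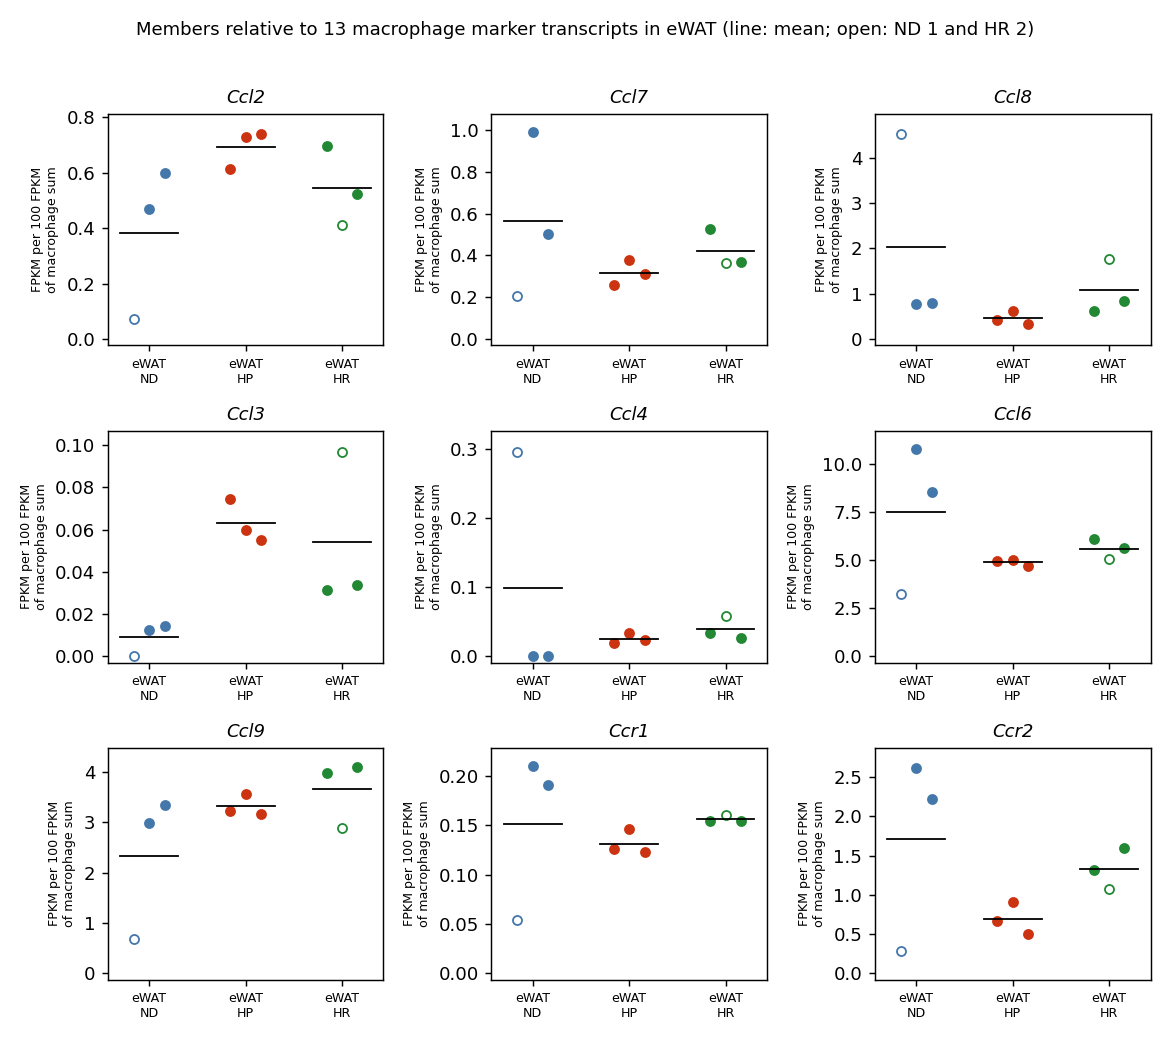
FPKM of each member per 100 FPKM of the summed 13 macrophage markers (y axis, linear) in eWAT by diet group (x axis); points are libraries, lines are means of 3, and open points are ND 1 and HR 2. Ccl3 rises from at most 0.0144 in ND to at least 0.0549 in HP, while Ccr2 lies at 0.500 to 0.909 in HP and 1.07 to 1.59 in HR.

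Across the 9 eWAT libraries the members ran together, which is a description of libraries that also share diet group and tissue composition. The median of a member's Pearson r, on log2(FPKM + 1), with the other 8 was 0.654 for Ccl4 and 0.756 for Ccl8, and 0.833 to 0.965 for the remaining 7. Over 7 libraries the medians were 0.845 to 0.968, the lowest that of Ccr2, and those of Ccl4 and Ccl8 were 0.943 and 0.929.

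The genes of the whole table most like each member over the 9 libraries were taken by the same r, among 10258 genes with a mean of at least 5 FPKM. Ccr1 was nearest to Fcgr3 (r = 0.999), Clec7a and Slfn2, and Fcgr3 and Clec7a encode surface receptors of myeloid cells. Ccl2 was nearest to Ctsk (r = 0.998), Tmem106a and Fos, an immediate early transcription factor. Ccl6 was nearest to Il10rb, Ly86 and Gltp, and Ccl9 to Lctl, Rftn1 and Ehd4, each with r of at least 0.996. Ccl8 was nearest to Atp6v0d2, Trem2 and Entpd1 (r = 0.951 to 0.954), of which Atp6v0d2 and Trem2 are on the lipid-associated macrophage list. Ccl7 was nearest to Bet1, Blvra and Egr1 (r = 0.986 to 0.988), Ccr2 to Psat1, Jpt2 and Trim30a, Ccl3 to Mcm6, As3mt and Shc2, and Ccl4 to Mfsd12, Plekho2 and Efhd2. Over the 9 liver libraries r was 0.780 for Ccl2 with Ctsk and 0.284 for Ccr1 with Fcgr3. It was -0.0292 for Ccl8 with Trem2 and -0.921 for Ccl3 with As3mt. In liver Ccl8 was listed at 0 in 8 of 9 libraries, Ccl3 at 0 in 4, and Ccr1 was at most 0.283 FPKM. The liver r of these members can therefore show neither likeness nor its absence.

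The other genes of the pathway were read from lists made with results of these data known. In eWAT 2.07% of all genes tested were called higher in HP than ND over 9 libraries, and 15.7% over 7. Of the 14 other CC ligands, 10 were tested in HP against ND of eWAT over 9 libraries and limma called 0 (0 had an unadjusted p under 0.05). Over 7 libraries, 1 of 9 rose, Ccl22 at 0.92 (adjusted p = 0.0222), a ligand of Ccr4, and 1 fell, the eosinophil attractant Ccl24 at -0.69 (adjusted p = 0.0474). Their median log2 difference was -0.15 over 9 libraries, beside 2.25 for the 9 members. Among the other CC receptors, of which some are not reported here, the atypical receptor Ackr1 rose by 1.12 (adjusted p = 0.0107) over 7 libraries. Its rank within that list is not given.

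Of other chemokine classes, 0 of 14 were called over 9 libraries (7 had an unadjusted p under 0.05), and 7 of 13 rose and 1 fell over 7. The largest rises were Cxcr4 at 1.92 (adjusted p = 0.00117), the receptor of Cxcl12, Cxcl14 at 1.84, Cxcl16 at 1.24 and the fractalkine receptor Cx3cr1 at 1.06. Of the 33 tested genes of chemokine receptor signalling 7 rose over 9 libraries and 22 over 7, with none called lower. Those called over 9 libraries included Nckap1l (3.54) and the Rac activator Dock2 (3.46), which are blood-cell genes of actin remodelling, and Pik3r5 (3.42), a subunit of PI3-kinase gamma. In the list of NF-kB and inducers of chemokines, 1 of 23 rose over 9 libraries, Tnf at 1.45 (adjusted p = 0.0365). Over 7 libraries 8 rose, led by Fos at 3.04 (adjusted p = 9.28e-05), Tlr2 at 1.49, Tnf at 1.37 and Nfkb2 at 0.96. Many genes of these lists are themselves expressed in macrophages, whose markers moved with them as given above.

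For the comparisons with HR, over 7 libraries with 2 in HR and 2 in ND, the lists are given by their own values. Of the signalling genes 13 of 33 were called higher in HR than ND and 10 of 33 higher in HP than HR, where 3.85% and 4.21% of all genes were. Cxcl14 (1.63), Pf4 (1.02) and Cxcr4 (0.96) were higher in HP than HR, as were Fos (1.14) and Tlr2 (0.83). Over 9 libraries none of these passed.

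In liver Ccl2, Ccl6 and Ccl9 alone of the 9 members reached 1 FPKM in at least 3 libraries. Ccl2 was at 0.241, 0.733 and 0.802 FPKM in ND, 2.48, 3.42 and 2.09 in HP, and 0.317, 0.689 and 0.827 in HR. HP lay above both groups, and ND and HR overlapped. It rose by 1.21 (SE 0.20, limma adjusted p = 0.00203) in HP against ND and by 1.18 (SE 0.20, adjusted p = 0.00717) against HR. Among all liver genes tested 17.6% were called higher in HP than ND and 7.20% higher in HP than HR, and 23.6% and 17.0% had HP values above all those of ND and HR. Ccl2 passed the filter through the HP libraries alone, and with any 1 of them left out it was not tested. Without the filter its adjusted p was 0.00792 and 0.0277.

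Ccl9 was the most abundant member in liver. It was at 8.98, 12.3 and 11.5 FPKM in ND, 10.1, 9.53 and 11.7 in HP, and 13.8, 14.5 and 14.9 in HR. HR lay above both other groups, by 0.38 (SE 0.13, adjusted p = 0.151) over ND, while HP against HR gave -0.43 (SE 0.13, adjusted p = 0.0605). Neither difference passed, though the second did without liver ND 1 (adjusted p = 0.0498). In liver 14.8% of genes had HR above all ND values and 17.0% had HP below all HR values.

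Ccl6 was at 1.90, 3.46 and 3.87 FPKM in liver of ND, 2.71, 2.51 and 2.93 in HP, and 1.57, 3.19 and 3.26 in HR, with overlap of all groups. Its difference was -0.10 (SE 0.23, adjusted p = 0.764) in HP against ND. In HR against ND limma called 0 of the 3 tested members, with 1 (Ccl9) under an unadjusted p of 0.05, where 2.28% of all genes were called higher.

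The remaining 6 members were below 1 FPKM in every liver library, apart from Ccr2 in HP 2 and HP 3. Ccl8 was listed at 0 in 8 of 9 libraries and at 0.198 FPKM in HP 1. Ccl3 was listed at 0 in all ND libraries and was at 0.202, 0.343 and 0.310 in HP and 0.113, 0.331 and 0 in HR. Ccr2 was at 0.513 to 0.642 in ND, 0.780, 1.47 and 1.93 in HP, and 0.605 to 0.695 in HR, so HP lay above both groups. Ccl4 was at most 0.760, Ccl7 at most 0.683 and Ccr1 at most 0.283 FPKM. With no filter on low values, Ccl3 at 0.36 (adjusted p = 0.0330) and Ccr2 at 0.59 (adjusted p = 0.0395) passed in HP against ND, besides Ccl2.

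Counts of other cell markers in liver stand beside the 17.6% of all genes tested that were called higher in HP than ND. In HP against ND 1 of 12 tested macrophage markers, 3 of 5 lipid-associated macrophage markers, 2 of 2 tested neutrophil markers and 2 of 2 tested adipocyte markers rose. Of the lipid-associated macrophage markers 1 fell, and 0 of 7 Kupffer cell markers rose. The macrophage sum was 86.9 to 116 FPKM in ND, 104 to 158 in HP and 62.5 to 164 in HR. The adipocyte sum was 36.8 to 64.8 in ND, 107 to 152 in HP and 40.9 to 43.5 in HR. It was nearly all Fabp4 and Cidec, while Adipoq, Plin1 and Lep reached at most 1.40, 0.399 and 0.723 FPKM in any liver library. The skeletal muscle sum reached 98.9 in HP 2 and 19.9 in HP 3 against at most 0.955 in the other libraries. The part of these in the Ccl2 difference was not tested.

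Counts of the pathway lists in liver likewise stand beside the 17.6% of all genes called higher in HP than ND. Of other chemokine classes, 3 of 6 tested members rose in HP against ND and 1 fell. Cxcl1, a neutrophil attractant, rose by 2.26 (adjusted p = 0.000232), Cxcl10 by 1.01 and Cxcl9 by 0.68, and Cxcl12 changed by -0.72 (adjusted p = 0.00290). Cxcl1 was also higher in HR than ND, by 1.78 (adjusted p = 0.00408), where Ccl2 differed by 0.02 (SE 0.20, adjusted p = 0.961). Ccl27a rose by 0.80 (adjusted p = 0.0196) in HP. In the NF-kB and inducer list 4 of 19 rose, with Jun at 1.72, Fos at 1.31 and Relb at 0.69, and 3 fell, with Ikbkg, the regulatory subunit of the kinase upstream of NF-kB, at -0.71. Of 22 signalling genes Gng10 (0.54) and Gnai2 (0.52), both G protein subunits, rose and none fell.

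The tissues were compared directly as the difference between the eWAT and the liver contrast. For HP against ND over 18 libraries, 4 of 9 members were called higher in eWAT, where 4.10% of 15006 genes were: Ccl9 by 4.12 (SE 1.05, adjusted p = 0.0364), Ccr1 by 2.10 (SE 0.50, adjusted p = 0.0265), Ccl3 by 1.77 (SE 0.29, adjusted p = 0.00272) and Ccl8 by 1.62 (SE 0.34, adjusted p = 0.0134). Over the 16 libraries without eWAT ND 1 and HR 2, 8 of 9 were called, where 16.7% of genes were. Ccl3, Ccl4, Ccl7, Ccl8 and Ccr1 were below 1 FPKM in every liver library, where this scale allows only small contrasts. Their calls in each diet comparison thus lean on the eWAT contrast. By ratio of means, Ccl7 in HP was 5.84 times ND in liver and 3.07 times in eWAT over 7 libraries. For Ccr1 these ratios were 1.80 and 4.96. With 1 of the 18 left out, Ccl8 was kept throughout and Ccl3 wherever it was tested. Ccl3 and Ccl4 entered these fits through the HP libraries of eWAT alone, so being tested and being higher there are not separate facts for them. Ccl9 was lost without any liver library or any HP library of eWAT (adjusted p up to 0.0953), and Ccr1 without any HP library of eWAT, any ND library of liver, or liver HP 1 or HP 2 (up to 0.0773). Over 16 libraries the exception was Ccr2 at 0.47 (SE 0.29, adjusted p = 0.251). For Ccl2, which rose in HP in both tissues, the difference was 2.54 (SE 0.81, adjusted p = 0.0972) over 18 libraries and 1.83 (SE 0.29, adjusted p = 0.000422) over 16.

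For HR against ND limma called 0 of 9 over 18 libraries (1 had an unadjusted p under 0.05), where 0.0267% of genes were called higher, and Ccl2, Ccl8, Ccl9 and Ccr1 over 16, where 5.59% were. For HP against HR it called 0 of 9 over 18 (2 had an unadjusted p under 0.05), where 0.0533% were, and Ccl3, Ccl9 and Ccr1 over 16, where 5.72% were. Ccl9 is the member whose HP and HR libraries were ordered in opposite ways in the tissues, with HP above HR in eWAT and below it in liver, and this difference was 1.34 (SE 0.20, adjusted p = 0.00273) over 16 libraries but 2.13 (SE 1.05, adjusted p = 0.809) over 18.

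**Figure D4:**
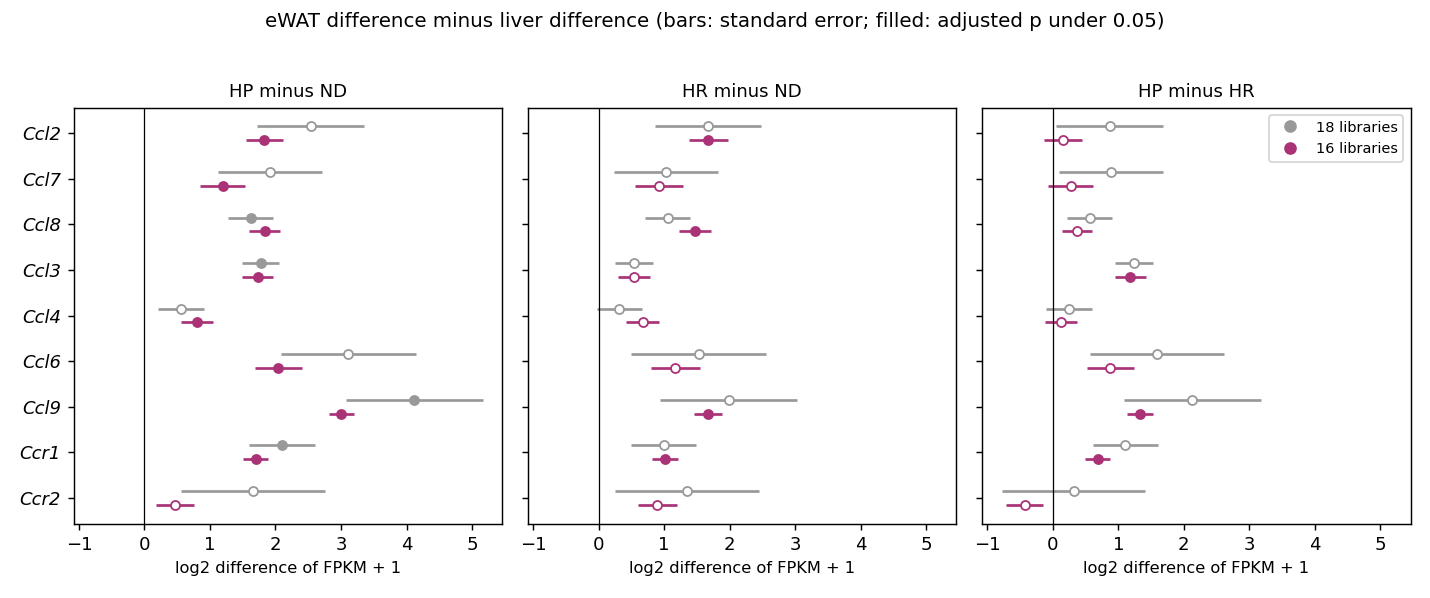
The eWAT log2 difference minus the liver log2 difference of FPKM + 1 (x axis) for each member (y axis) in the 3 diet comparisons; grey points use 18 libraries and purple points 16, bars are standard errors, and filled points passed an adjusted p of 0.05. In HP against ND 4 grey and 8 purple points are filled, and Ccr2 is the member filled in neither.

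Levels also differed between tissues within a diet. In HP all 9 members were called higher in eWAT than liver, where 43.1% of genes were (64.1% over 16 libraries, again with all 9 called), from 0.74 (adjusted p = 0.0207) for Ccl4 to 6.27 (adjusted p = 5.42e-06) for Ccl6. The call of Ccl4 was lost without liver HP 1 (adjusted p = 0.105). Ccl3 and Ccl4 passed the filter through the HP libraries of eWAT alone, so being tested and being higher there are not separate facts for them. In ND 4 were called, where 39.6% of genes were: Ccl6 at 3.16, Ccl8 at 3.02, Ccr2 at 2.45 and Ccl7 at 1.88. That of Ccl7 was lost without eWAT ND 2 (adjusted p = 0.0534), and that of Ccr2 without eWAT ND 2 or ND 3 (0.0729 and 0.0746). Ccl9 differed by -0.03 (SE 0.74, adjusted p = 0.978) in ND over 18 libraries and by 1.08 (SE 0.15, adjusted p = 1.51e-05) over 16, and ND 1 of eWAT, left out of the second, was at 1.50 FPKM. Over 16 libraries 7 of 9 were called in ND, where 65.1% of genes were, with Ccl3 and Ccl4 the 2 that were not.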

How the data were processed

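The authors deposited FPKM values for 23474 genes in 18 libraries. The libraries were TruSeq mRNA preparations from TRIzol extracts, per the labels' protocols. The submitters' processing notes name STAR 2.4.0, Cufflinks 2.1.1 and CASAVA 1.8.2. What each did is not given in the sources used here, nor are genome build, annotation or strandedness. FPKM depends on all other transcripts of a library, so abundant transcripts from a neighbouring tissue reduce the values of all other genes, and no counting interval can be given. Gene names for 22671 identifiers came from GENCODE M21.

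The tests, two-sided, were those of limma 3.58.1 (R 4.3.3) with a variance trend, applied to log2(FPKM + 1). A gene entered where 3 or more libraries of the fit held 1 FPKM or more. The 3 groups of a tissue shared 1 fit, tissue differences used all 18 libraries with 1 spread per gene, and Benjamini-Hochberg adjustment ran over all genes tested. This scale understates changes of low genes. The procedure was tested on simulated data.

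The members and lists were chosen with earlier results of these data known. All 9 members are described, each with the 3 genes most like it by Pearson r. Of each other list, up to 4 genes with the largest change among those that passed were named, or the 2 with the smallest p; some genes of these lists are not reported here. Other genes named (Alb, mt-Co1, Ly6g, Clec4f, Lyz2, Lgals3, S100a8, Folr2, Plac8, Chil3, Vcan, Treml4, H2-Ab1, Zbtb46, Siglech, Clec9a, Fabp4, Cidec, Adipoq, Plin1 and Lep) were chosen after their values were seen. Alternatives were a pseudocount of 0.1, no filter, quantile normalization, rescaling to the same sum, no trend, the replicate number as a block, the compared groups alone, array weights by tissue, and leaving out libraries. Figures were drawn with matplotlib 3.10.9.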

Additional observations from a re-analysis of the deposited data

Results flagged for a closer look

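The members below differed between the tissues in their response of HP against ND, by limma's test of the eWAT difference minus the liver difference over 18 libraries. Ccl9 was higher by 4.12 (adjusted p = 0.0364), Ccr1 by 2.10 (adjusted p = 0.0265), Ccl3 by 1.77 (adjusted p = 0.00272) and Ccl8 by 1.62 (adjusted p = 0.0134) on the log2 scale. All 4 calls were lost with a pseudocount of 0.1, quantile normalization or the replicate block, with adjusted p up to 0.206 for Ccl3, 0.258 for Ccl8, 0.157 for Ccr1 and 0.0953 for Ccl9 over the alternatives, and leaving out 1 library ended that of Ccl9 in 12 of 18 fits and that of Ccr1 in 8 of 18. For each of the 4, all 3 HP libraries of eWAT were above all 3 ND libraries. In liver Ccl9 overlapped between HP and ND, and Ccl3, Ccl8 and Ccr1 were too low there to be tested alone. At such low levels the scale allows only small liver contrasts, so the calls of Ccl3, Ccl8 and Ccr1 lean on the eWAT contrast. Ccl3 entered the fit through the HP libraries of eWAT alone, so being tested and being higher there are not separate facts for it.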

How the results depend on the processing

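Members called in eWAT HP against ND numbered 2 as reported, 1 with a pseudocount of 0.1, with no filter or with no variance trend, 0 with quantile normalization, 9 without ND 1 and HR 2, and 6 without ND 1, ND 3, HP 1 and HR 2 (4 libraries) or without ND 1, HP 2 and HR 2 (3 libraries, chosen after seeing the data). Leaving out 1 library gave 0 to 5: 5 without HR 2, 2 without ND 1, 1 without HR 3 and 0 without any other. Over all genes tested, those fits called 0 to 593 in either direction, beside 304 as reported, so the count of members moved with that of the whole table. Ccl3 was not tested without an HP library. In eWAT, HR against ND went from 0 to 4 without 2 libraries, 2 without 3 and 3 without 4, and HP against HR from 0 to 4, 2 and 5; leaving out 1 library gave 0 throughout for both. In liver, HP against ND went from 1 to 3 with no filter and HP against HR from 1 to 2 when libraries were rescaled, where Ccl9 passed (-0.61, adjusted p = 0.0319). Leaving out 1 library gave 0 to 1 and 0 to 2, with 0 where an HP library was left out, because Ccl2 was then not tested. Over all liver genes, those fits called 1716 to 3543 and 229 to 1424, beside 3372 and 1185 as reported.

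The tissue difference of HP against ND went from 4 members to 0 with a pseudocount of 0.1 or quantile normalization and to 8 without 2 libraries, and leaving out 1 library gave 1 to 6, with 1 without any HP library of eWAT and 2 without any ND library of liver, HP 1 or HP 2 of liver. Over all genes, those leave-one-out fits called 386 to 1510, beside 748 as reported. The tissue difference of HR against ND went from 0 to 4 without 2, 3 or 4 libraries. That of HP against HR went from 0 to 1 with no filter, 3 without 2 libraries and 2 without 3 or 4. For eWAT against liver, ND went from 4 to 2 with quantile normalization and 7 without 2, 3 or 4 libraries (2 to 6 leaving out 1, with 2 without eWAT ND 2), and HP kept 7 to 9 of 9.

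Deviations of same-numbered libraries correlated at -0.843 to 0.625 within tissues and -0.141 to 0.211 across them. The labels do not say whether same-numbered libraries of eWAT and liver came from the same mouse. These correlations cannot decide it, because eWAT libraries also differed in spermatid and epididymis transcripts, which liver libraries hardly held. With the replicate block, eWAT HP against ND gave 0 members (Ccl2 adjusted p = 0.147, Ccl3 0.0945), the tissue difference of HP against ND gave 0 as well, and no other count of members changed.

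Signs reversed in 31 of 1825 values of single members under an alternative, and 1647 kept their sign and side of the threshold. With quantile normalization the tissue differences became -0.037 for Ccl4 in HP against ND, and -0.094 for Ccl3 and -0.16 for Ccl4 in HR against ND; eWAT against liver became -0.10, -0.081 and -0.20 for Ccl2, Ccl3 and Ccl4 in ND, and -0.24 for Ccl4 in HP. With a pseudocount of 0.1 the tissue difference of HP against HR became -0.12 for Ccl7 and -0.053 for Ccr2, and for Ccr2 it was -0.43 without 2 libraries and -0.49 without 3 or 4. Rescaling gave -0.088 for Ccl6 in liver HP against HR, and 0.13 for Ccl9 in eWAT against liver of ND. In that comparison Ccl9 was 1.08 without 2 or 3 libraries and 1.17 without 4, and Ccl4 -0.065 without 2. Leaving out 1 library gave -0.62 to 1.08 for Ccl9 and -0.065 to 0.29 for Ccl4 there, and -0.43 to 0.80 for the tissue difference of Ccr2 in HP against HR. In liver it gave -0.33 to 0.046 for Ccl6 and -0.18 to 0.032 for Ccl9 in HP against ND, -0.15 to 0.16 for Ccl2 and -0.38 to 0.087 for Ccl6 in HR against ND, and -0.19 to 0.18 for Ccl6 in HP against HR. Causes were not tested.

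With 3 libraries a group and no depth, small differences in low genes could not be seen.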
